A study of Aethionema arabicum with 12 samples.

Results

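The GASA genes (gibberellic acid stimulated in Arabidopsis) encode small secreted peptides with a conserved, cysteine-rich C-terminal domain, and several of them are raised by the hormone gibberellin. Gene models of the crucifer Aethionema arabicum were taken as GASA genes where their Arabidopsis thaliana match in the deposited table was 1 of 9 loci (GASA1, 2, 3, 4, 5, 6, 9, 10 and 14). The rule found 3 of the 23594 gene models, namely AA31G00380 (GASA1, AT1G75750), AA9G00183 (GASA3, AT4G09600) and AA40G00565 (GASA4, AT5G15230). The other loci of the rule matched no model. Of these 3 models, 2 had enough reads to be tested (GASA3 and GASA4), as 15671 models had in all.

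Gibberellin promotes germination. It is made in its last steps by GA20-oxidases and GA3-oxidases and inactivated by GA2-oxidases, and the bound receptor GID1 leads to the destruction of DELLA proteins, which otherwise hold growth back. In Arabidopsis seeds light acts on this pathway through phytochrome, largely by raising GA3-oxidase genes. In Arabidopsis, GASA4 is a gibberellin-induced gene of meristems and growing tissue, GASA1 is a gibberellin-induced gene of flower buds and young fruit, and GASA3 transcripts are known from siliques and dry seeds.

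RNA came from imbibed seeds of a Cypriot accession (CYP, labelled Cyprus) and a Turkish accession (TUR, labelled Turkish ES1020), either exposed for 23 h to 100 µmol m-2 s-1 of white light or left dark. The groups were CYP light, CYP dark, TUR light and TUR dark, with 3 poly(A) RNA libraries each. Only intact seeds without germination were collected, so seeds that had already germinated are in no library. The labels give neither the number of seeds per library nor whether the repetitions came from separate seed batches, and p-values therefore measure the spread between these libraries, which may be technical. From earlier work on this species, white light holds back germination in CYP but not in TUR, and the comparisons ask how each accession responds to light and where the accessions differ.

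The libraries held 7099578 to 13953792 counts each. In CPM, the count scaled to library size, 3 counts stood for 0.215 to 0.423, a floor that covers counting error only. In a principal component analysis of log2 CPM, accession lay along an axis with 62.3% of the variance, and light against dark along one with 21.3%. A further axis (4.86%) had its highest value in CYP dark replicate 3 (30.2) and its lowest in TUR dark replicate 3 (-18.3). The correlation across genes of CYP dark replicate 3 with the other CYP dark libraries was 0.984 and 0.985, against 0.994 between those. That of TUR dark replicate 3 with the other TUR dark libraries was 0.990 and 0.993, against 0.994 between those. Of 6 seed marker loci (cruciferins, oleosins and EM proteins), 5 had a model, and 6 of their 7 models had reads, while 1 cruciferin model (AA306G00002) was at 0. The summed level of these markers was 9672 to 10492 CPM in CYP light, 6171 to 8239 in CYP dark, 3296 to 6099 in TUR light and 2658 to 4367 in TUR dark. The 2 loci chosen to mark green seedling tissue matched no model.

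GASA4 fell in light in both accessions and was lower in CYP than in TUR in both conditions. It had the highest mean CPM of these genes over the 12 libraries, though not in CYP light. TMM-scaled CPM were 33.6, 39.1 and 36.4 in CYP light replicates 1 to 3 and 165.8, 154.7 and 100.3 in CYP dark. They were 285.9, 299.3 and 212.1 in TUR light and 588.3, 481.2 and 629.5 in TUR dark. The order was therefore CYP light, CYP dark, TUR light and TUR dark from low to high, and no 2 groups overlapped, although CYP dark and TUR light were not tested against each other. Between CYP light and TUR dark the means lay 15.6-fold apart.

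**Figure D1:**
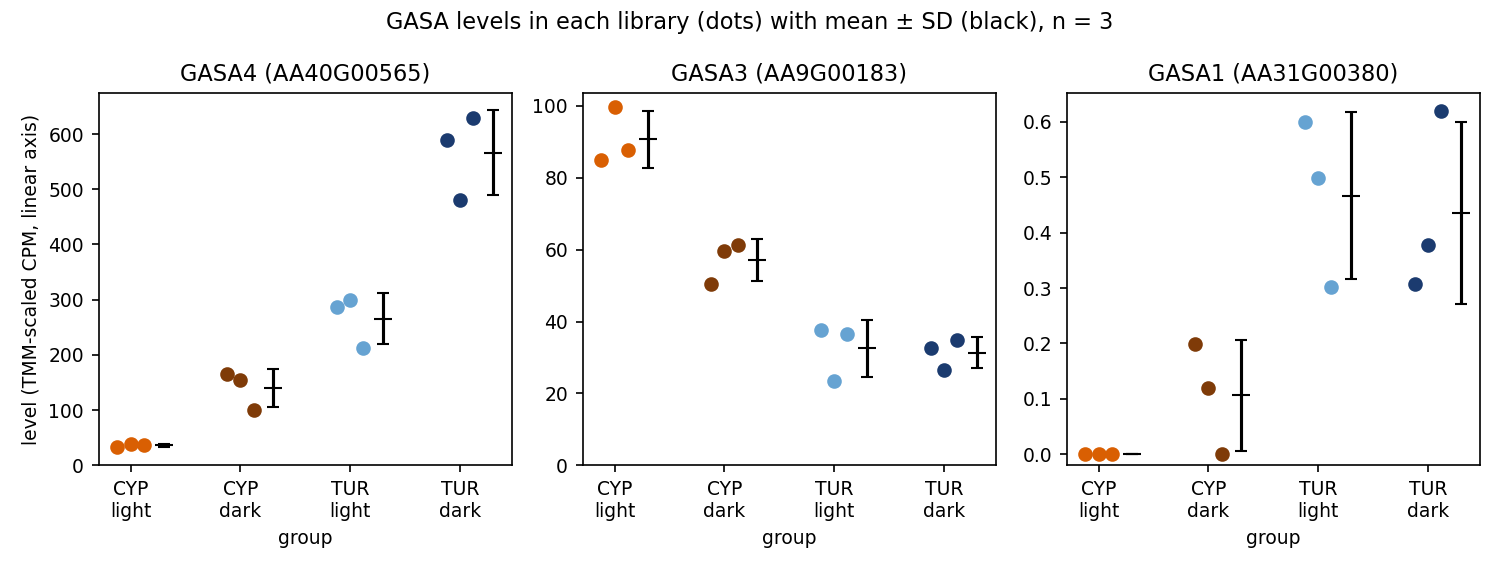
Level of GASA4, GASA3 and GASA1 in TMM-scaled CPM (linear y axes, each with its own range) for the groups CYP light, CYP dark, TUR light and TUR dark on the x axis. Dots are libraries and black marks are mean ± SD (n = 3). GASA4 had its lowest mean, 36.4 CPM, in CYP light and its highest, 566 CPM, in TUR dark, GASA3 had its highest mean, 90.7 CPM, in CYP light, and GASA1 stayed below 1 CPM.

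In CYP seeds GASA4 fell in light, with a mean of 36.4 ± 2.77 CPM in light and 140.3 ± 35.0 CPM in darkness (SD, n = 3 each). The log2 fold change was -1.95 (SE 0.17), a 3.87-fold lower level, with an adjusted p of 1.1e-07 in edgeR's quasi-likelihood test with Benjamini-Hochberg adjustment. Both tested GASA models were called in CYP (GASA4 lower, GASA3 higher), where 24.9% of all models tested were called at an adjusted p under 0.05, 14.3% lower and 10.6% higher. The change of GASA4 in size exceeded that of 98.3% of the models tested. CYP dark replicate 3 held the lowest dark value, and without it the log2 fold change was -2.14.

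In TUR seeds GASA4 also fell in light, to 266 ± 47.0 CPM, against 566 ± 76.6 CPM in darkness (SD, n = 3 each). The log2 fold change was -1.09 (SE 0.16), a 2.13-fold lower level, with an adjusted p of 7.9e-05 (edgeR). It was the 1 called of the 2 tested GASA models in TUR, where 18.4% of models were called, 9.22% lower and 9.17% higher. On the RPKM deposited by the authors the fall was smaller, at -0.49 (limma, adjusted p = 0.0262). Those TUR values do not follow from the counts, and for GASA4 they were 0.435 to 0.528 of the RPKM computed from the counts in TUR light and 0.292 to 0.336 in TUR dark.

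The light response of GASA4 was larger in CYP by 0.86 on the log2 scale (difference of log2 fold changes -0.86, SE 0.23, 95% interval -1.34 to -0.38), and the difference was not called in edgeR (adjusted p = 0.0582). In this comparison 2.24% of models were called, 1.83% lower and 0.408% higher. Of 12 fits with a library left out, 2 called the difference. Leaving out CYP dark replicate 3 gave -1.05 with an adjusted p of 0.000812 (edgeR). Leaving out TUR light replicate 3 gave -0.96 with an adjusted p of 0.0437. In the rest the adjusted p was 0.0872 to 0.198 (edgeR). With RLE scaling it was 0.0652 and with the replicate number as a block 0.0893, so neither called it. Without a low-count filter it was 0.0258 (edgeR). DESeq2 gave an adjusted p of 0.0256 and limma on log2(RPKM + 1) gave 0.232, the highest among the alternatives tried. The direction was the same in each of them.

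GASA3 followed another order. TMM-scaled CPM were 84.9, 99.7 and 87.7 in CYP light and 50.5, 59.6 and 61.3 in CYP dark. They were 37.8, 23.4 and 36.5 in TUR light and 32.8, 26.6 and 34.8 in TUR dark. CYP light stood above CYP dark, and CYP dark above both TUR groups, without overlap, whereas TUR light and TUR dark overlapped. From the lowest mean (TUR dark) to the highest (CYP light) the span was 2.89-fold, less than that of GASA4.

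In CYP seeds GASA3 rose in light, with 90.7 ± 7.86 CPM in light and 57.1 ± 5.77 CPM in darkness (SD, n = 3 each). The log2 fold change was 0.67 (SE 0.14), a 1.59-fold higher level (adjusted p = 0.00182, edgeR). The summed level of the seed markers, given above, was also higher in CYP light than in CYP dark without overlap. Oleosin means were 2318 and 3152 CPM in CYP light and 1311 and 1376 in CYP dark. Cruciferin models with reads had 1764 and 2568 against 1692 and 2263, and EM models 262 and 125 against 178 and 73.9. In TUR light against TUR dark, oleosin means were 1131 and 1581 against 821 and 949. Those of cruciferins were 622 and 1333 against 451 and 1031, and of EM 102 and 36.7 against 116 and 39.3. The part of these markers in the GASA3 result was not tested. Since these are bulk samples, fewer cells of a type and less RNA per cell cannot be told apart.

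In TUR seeds GASA3 was not called, with 32.6 ± 7.94 CPM in light and 31.4 ± 4.28 CPM in darkness (SD, n = 3 each). The log2 fold change was 0.07 (95% interval -0.25 to 0.38, adjusted p = 0.801, edgeR), which spans ratios of light to dark of 0.844 to 1.30. The sign turned negative without TUR dark replicate 2, TUR light replicate 1 or TUR light replicate 3. The difference between the light responses of the accessions was 0.60 (SE 0.21, 95% interval 0.17 to 1.03) and was not called (adjusted p = 0.161, edgeR). Thus 0 of the 2 tested GASA models were called for the difference between accessions in edgeR, both had an unadjusted p under 0.05, as 2132 of all 15671 models did, and DESeq2 called 1 of them (GASA4).

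**Figure D2:**
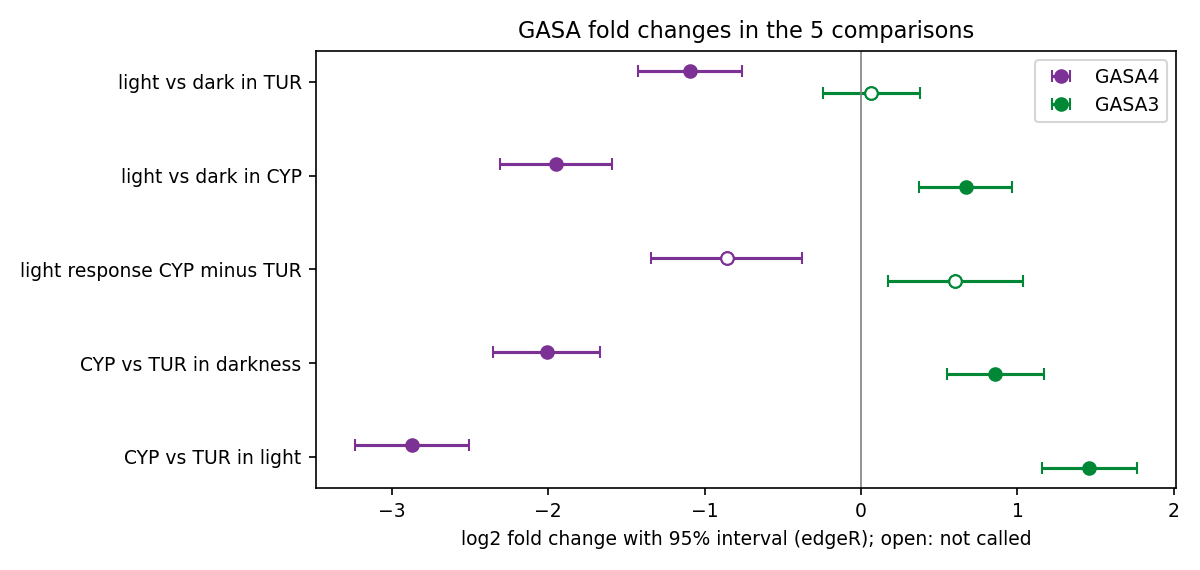
Log2 fold changes of GASA4 and GASA3 (x axis) with 95% intervals from edgeR in the 5 comparisons (y axis), where filled points were called at an adjusted p under 0.05 and open points were not. All 5 values of GASA4 lie below 0, from -0.86 to -2.87, and all 5 of GASA3 above 0, from 0.07 to 1.46.

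Between the accessions both tested genes differed, in opposite directions. In darkness GASA4 was 4.03-fold lower in CYP than in TUR (log2 fold change -2.01, SE 0.16, adjusted p = 1.9e-08, edgeR), and GASA3 was 1.81-fold higher in CYP (0.86, SE 0.15, adjusted p = 0.000126). In light GASA4 was 7.30-fold lower in CYP (-2.87, SE 0.17, adjusted p = 2.1e-10), and GASA3 was 2.75-fold higher (1.46, SE 0.14, adjusted p = 1.4e-07). Calls between accessions were frequent. In darkness 44.5% of models were called, 22.1% lower and 22.4% higher in CYP, and in light 52.7% were called, 27.8% lower and 24.9% higher. The sizes for GASA4 exceeded those of 95.9% of the models tested in darkness and 97.2% in light, and those for GASA3 exceeded 82.9% and 91.0%. The comparisons in light and in darkness share no library with each other, but each shares its libraries with the light comparisons above. Whether reads of CYP and TUR seeds mapped equally well to these gene models was not tested.

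Since the deposited RPKM of TUR libraries does not follow from the counts, it was not tested against that of CYP, and the values are given side by side. In the authors' deposited table GASA4 averaged 104 RPKM in CYP dark and 137 RPKM in TUR dark, whereas RPKM computed from the counts were 104 ± 28.8 in CYP dark and 440.3 ± 66.2 in TUR dark (SD, n = 3 each). In light the authors' deposited table gave GASA4 means of 27.5 RPKM in CYP and 96.9 RPKM in TUR, whereas RPKM from the counts were 27.5 ± 1.93 in CYP light and 209.96 ± 38.1 in TUR light (SD, n = 3 each). The accession differences of GASA4 above are thus smaller on deposited values. On these the TUR light libraries also overlap those of CYP dark, and their mean of 96.9 RPKM lies below the 104 RPKM of CYP dark. The order of CYP dark and TUR light given above thus rests on the counts. For GASA3 the deposited RPKM averaged 114 in CYP dark and 77.9 in TUR dark, and those from the counts were 114 ± 10.7 in CYP dark and 66.03 ± 9.98 in TUR dark (SD, n = 3 each). In light they averaged 185 RPKM in CYP and 77.9 RPKM in TUR as deposited, and from the counts 185 ± 15.4 in CYP light and 69.6 ± 16.9 in TUR light (SD, n = 3 each). GASA3 thus differed less between the sources than GASA4, with deposited TUR values at 1.10 to 1.24 times those from the counts. Its accession differences are therefore also smaller on deposited values.

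Set against each other per gene length, the 2 genes changed places across the groups. The level of GASA4 divided by that of GASA3 (per kilobase, from the counts) was 0.146, 0.145 and 0.153 in CYP light and 1.21, 0.959 and 0.605 in CYP dark. It was 2.80, 4.72 and 2.15 in TUR light and 6.64, 6.69 and 6.68 in TUR dark. GASA3 was therefore the higher of the pair in every CYP light library and GASA4 in every TUR library, while the CYP dark libraries lay on both sides of 1. In TUR dark the ratio was 6.67 ± 0.0274 (SD, n = 3), and both genes were lowest in replicate 2. GASA3 had 426, 282 and 449 reads in these libraries, and so small an SD lies below the counting error of such counts. In the authors' deposited table the RPKM of GASA4 divided by that of GASA3 was lower in TUR, at 1.09, 1.79 and 1.03 in TUR light replicates 1 to 3 and 1.87, 1.81 and 1.61 in TUR dark, still above 1 in every TUR library. The lengths used were 1307 bases for GASA4 and 483 for GASA3, as listed by the authors, who do not say in the sources used here whether introns are included.

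**Figure D3:**
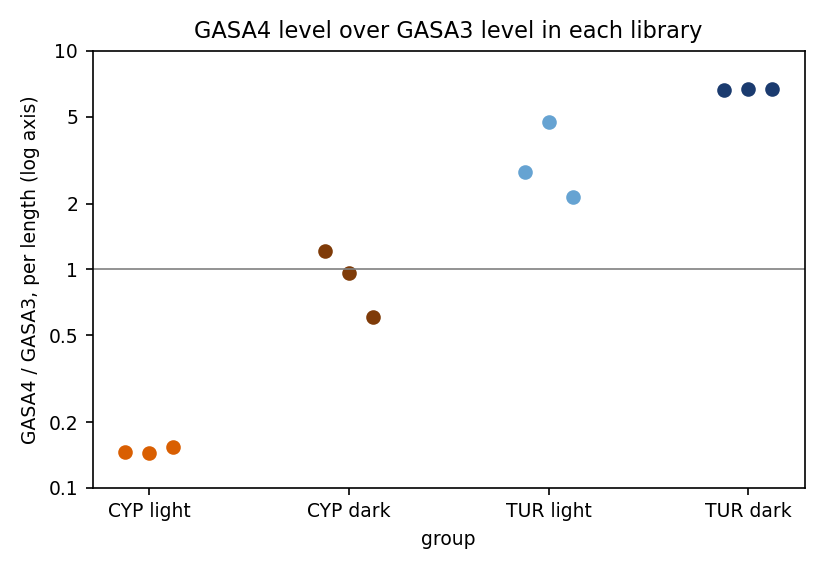
GASA4 level divided by GASA3 level per gene length in each library (log y axis) for the groups CYP light, CYP dark, TUR light and TUR dark, with a grey line at 1. CYP light libraries lie at 0.145 to 0.153, CYP dark libraries on both sides of 1, and TUR libraries above 1, up to 6.69 in darkness.

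Ranked per length among all models of at least 100 bases, GASA4 stood at position 3647 in CYP light, 1064 in CYP dark, 486 in TUR light and 207 in TUR dark. GASA3 stood at 578 in CYP light, 962 in CYP dark, 1577 in TUR light and 1632 in TUR dark. Summed over the 3 GASA models, the level was 127 ± 10.5 CPM in CYP light, 198 ± 31.1 in CYP dark, 299 ± 43.2 in TUR light and 598 ± 80.9 in TUR dark (SD, n = 3 each). GASA4 gave 28.6% ± 0.623 of these reads in CYP light, 70.3% ± 7.42 in CYP dark, 88.7% ± 3.71 in TUR light and 94.7% ± 0.0113 in TUR dark (SD, n = 3 each). The SD in TUR dark again lies below counting error.

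GASA1 was at the limit of detection. It had 0, 0 and 0 reads in CYP light, 2, 1 and 0 in CYP dark, 8, 4 and 4 in TUR light and 4, 4 and 8 in TUR dark, and it failed the filter of 1 CPM in 3 libraries. In TUR it had 16 reads in light and 16 in darkness, a ratio of 1.06 after scaling (95% interval 0.494 to 2.25). In CYP both groups were at or under 3 reads, and no fold is given. In darkness the ratio of CYP to TUR was 0.274 (95% interval 0.0512 to 0.958), from 3 reads in CYP and 16 in TUR. In light, with 0 reads in CYP and 16 in TUR, the exact 95% interval puts GASA1 at least 4.23-fold lower in CYP, and 0 reads taken as 3 over the group would give 5.85-fold. Intervals and floors cover counting error only.

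Marker genes of other seed tissues did not all move with GASA4. The embryo epidermis markers PDF1 and ATML1, both with reads, summed to 73.4 to 76.9 CPM in CYP light and 103 to 140.2 CPM in CYP dark, and to 79.5 to 95.03 CPM in TUR light and 92.0 to 124 CPM in TUR dark. The lower sums in light came from PDF1, with means of 9.10 CPM in CYP light and 57.8 in CYP dark, and 18.1 in TUR light and 50.4 in TUR dark, while ATML1 had 66.2 in CYP light and 62.5 in CYP dark, and 67.5 in TUR light and 59.4 in TUR dark. Their part in the fall of GASA4 was not tested. For the endosperm, 1 of 2 marker loci had a model (NCED6), at 10.1 to 11.6 CPM in CYP light, 15.3 to 26.0 in CYP dark, 1.75 to 4.35 in TUR light and 10.5 to 12.8 in TUR dark. The 2 seed coat markers summed to 29.8 to 32.7 CPM in CYP light, 24.6 to 34.9 in CYP dark, 37.1 to 53.3 in TUR light and 38.8 to 48.5 in TUR dark, with overlap between light and dark in each accession. The 2 genes went opposite ways, since MUM4 averaged 13.1 CPM in CYP light and 24.8 in CYP dark, and 29.8 in TUR light and 36.1 in TUR dark, while TTG2 averaged 18.4 in CYP light and 6.19 in CYP dark, and 16.6 in TUR light and 8.32 in TUR dark. The part of these genes in the GASA results was not tested.

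The models whose pattern came nearest to that of GASA4 were sought among 10107 models with an Arabidopsis match and a mean of at least 10 CPM. Likeness was the mean absolute difference between log2(CPM + 1) profiles over 12 libraries, each centred on its own mean. The nearest was AA805G00002 (PYR1-like 4, of the abscisic acid receptor family), at 0.25, against a median of 1.25 over all candidates. Its mean level was 8.56 CPM in CYP light, 34.3 in CYP dark, 61.6 in TUR light and 103 in TUR dark. Next came AA38G00029 (glycosyl hydrolase 9B1, a cellulase family member) at 0.27, AA8G00268 (fatty acid reductase 1) at 0.29, AA25G00163 (expansin A14, of a family that loosens cell walls) at 0.30, and AA61G00462 (fasciclin-like arabinogalactan protein 10, a cell wall protein) at 0.30. GASA3 itself lay 1.79 away from GASA4.

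By the same rule, applied to GASA3 after its values were seen, AA74G00026 (a protein of unknown function) was nearest, at 0.11, against a median of 0.59. AA9G00182, whose match AT4G09620 is a mitochondrial transcription termination factor family gene, followed at 0.12, with 509.6 CPM in CYP light, 296 in CYP dark, 162 in TUR light and 166 in TUR dark. Its identifier directly precedes that of GASA3 (AA9G00183). Whether reads of these models overlap was not tested, and the sources used here do not say if counting used strand. AA215G00006 (the EM1 match, a late embryogenesis protein gene and 1 of the seed markers) came next at 0.12, followed by AA7G00017 at 0.13 and the RNA-binding protein gene AA123G00021 at 0.14.

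**Figure D4:**
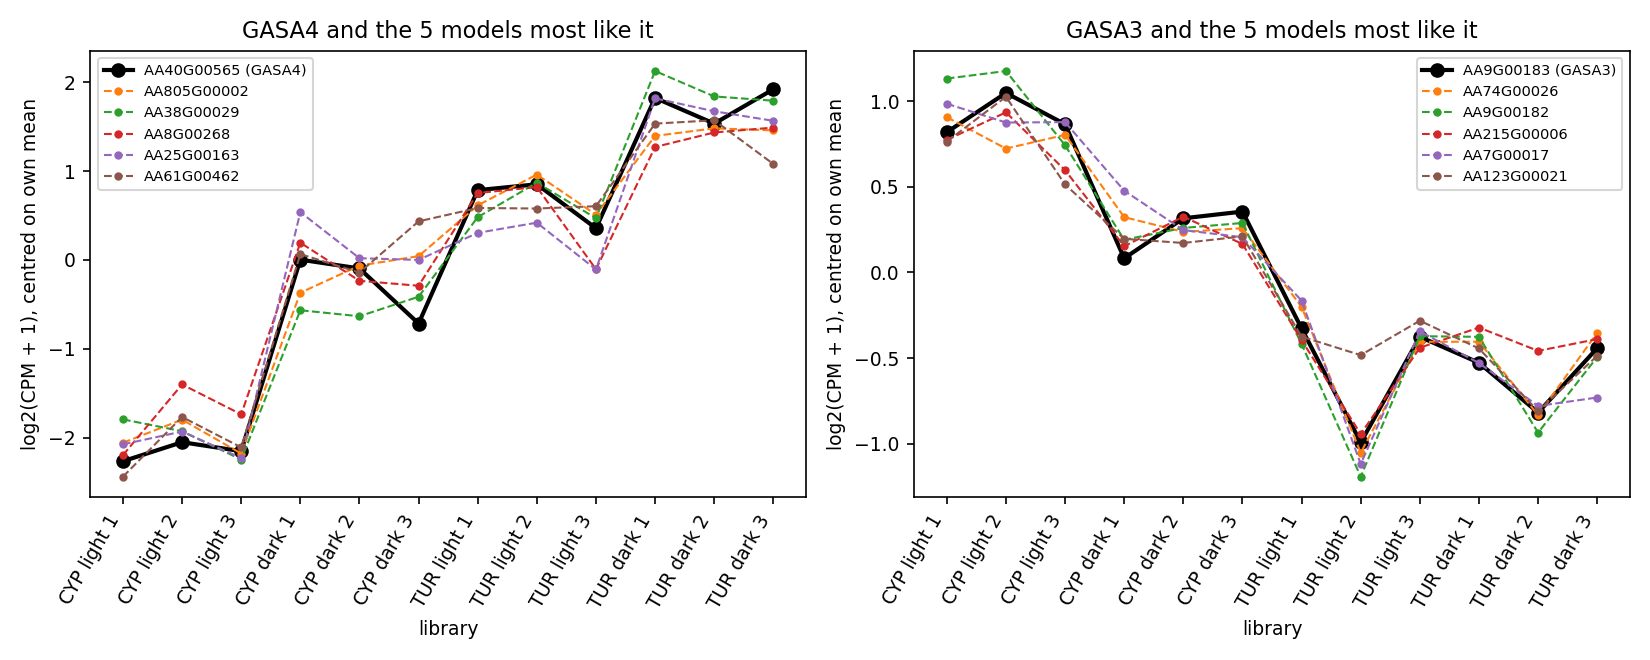
Log2(CPM + 1) centred on each model's own mean (y axis) in the 12 libraries (x axis), for GASA4 with its 5 nearest models (left) and GASA3 with its 5 nearest models (right). GASA models are solid black and the others dashed. The GASA4 set is lowest in CYP light and highest in TUR dark, and the GASA3 set is highest in CYP light.

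The wider gibberellin pathway was read from a list of 38 Arabidopsis loci, which matched 33 models, 24 of them tested. In CYP 6 of the 24 rose in light, 8 fell and 10 were not called, with a median log2 fold change of -0.43, against -0.0062 over all models. In TUR 5 rose, 6 fell and 13 were not called, with a median of 0.055, against 0.00042 over all models. For the difference between accessions 2 were called higher (GA3ox2 and the XERICO match AA659G00001). The 3 called lower were GA3ox1, a GA2ox2 match and GA20ox1, the last named after its values were seen. The higher calls were 0 without TUR dark replicate 3, TUR light replicate 2, CYP light replicate 1 or CYP light replicate 2, and 1 without TUR dark replicate 1 or CYP dark replicate 1. The lower calls were 1 without CYP light replicate 1, and 3 without TUR light replicate 3 or CYP dark replicate 1. With any other library left out they were 2, GA3ox1 and the GA2ox2 match, so that GA20ox1 was not called. GA20ox1 was also not called with RLE scaling or with limma on log2(RPKM + 1). Over all models tested, the shares called were 24.9% in CYP (10.6% higher, 14.3% lower), 18.4% in TUR (9.17% higher, 9.22% lower) and 2.24% for the difference. The same shares stand behind the counts of the smaller lists, which hold 2 to 8 tested models each. The rises in TUR were 2 without TUR dark replicate 2, TUR light replicate 1 or TUR light replicate 3, and 3 without TUR light replicate 2. On deposited RPKM the TUR counts were 2 rises and 3 falls.

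Synthesis genes moved both ways. Of 7 tested, 2 rose and 3 fell in CYP, and 2 rose and 1 fell in TUR. GA3ox2 (AA31G00895), which makes active gibberellin, had a light response that was larger in CYP by 1.12 on the log2 scale (SE 0.26, adjusted p = 0.0285, edgeR), with 21.3 ± 3.59 CPM in CYP light and 6.08 ± 0.251 in CYP dark, and 9.56 ± 1.04 in TUR light and 5.92 ± 1.44 in TUR dark (SD, n = 3 each). That call was lost when any of 7 libraries was left out (TUR dark replicate 1 or 3, TUR light replicate 2, CYP dark replicate 1 or 2, CYP light replicate 1 or 2), with adjusted p = 0.0509 to 0.0767. GA3ox1 (AA37G00176) fell in CYP (log2 fold change -0.55, adjusted p = 0.00952, edgeR) and rose in TUR (0.39, adjusted p = 0.0188), with 7.39 ± 0.831 CPM in CYP light and 10.9 ± 1.502 in CYP dark, and 42.4 ± 0.810 in TUR light and 32.3 ± 3.95 in TUR dark (SD, n = 3 each). The difference was -0.94 (SE 0.18, adjusted p = 0.00912, edgeR), and without CYP light replicate 1 the adjusted p was 0.0526. Pathway rises in TUR numbered 2 without TUR dark replicate 2, TUR light replicate 1 or TUR light replicate 3, as given above. Whether the GA3ox1 rise in TUR was among them is not given here. GA20ox2 (AA55G00064), an enzyme of the preceding steps, fell in CYP (log2 fold change -0.69, SE 0.18, adjusted p = 0.00966, edgeR) and in TUR (-1.55, SE 0.39, adjusted p = 0.00869), with 9.78 ± 0.572 CPM in CYP light and 15.98 ± 3.19 in CYP dark, and 0.518 ± 0.358 CPM in TUR light and 1.72 ± 0.340 in TUR dark (SD, n = 3 each).

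Inactivation genes were represented by 2 tested models that both match GA2ox2 and did not move together. AA18G00108 rose in CYP (log2 fold change 6.08, SE 0.38, adjusted p = 1e-09, edgeR) and in TUR (4.35, SE 0.38, adjusted p = 1.2e-07). Its mean was 14.2 ± 2.37 CPM in CYP light and 0.184 ± 0.202 in CYP dark, and 5.26 ± 0.794 in TUR light and 0.249 ± 0.0818 in TUR dark (SD, n = 3 each), so that the size of the fold rests on dark levels of a few reads. AA54G00411 had 10.6 ± 1.82 CPM in CYP light and 36.2 ± 3.18 in CYP dark, and 2.36 ± 0.747 in TUR light and 2.23 ± 0.938 in TUR dark (SD, n = 3 each). Its light response differed between the accessions by -1.95 (SE 0.34, adjusted p = 0.00418, edgeR). Whether near-identical stretches of the models share reads was not tested.

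Of 8 receptor and signalling models tested, 1 rose and 2 fell in CYP, and 1 rose and 3 fell in TUR, and 0 were called for the difference between accessions. Of 7 target models, 2 rose and 2 fell in CYP, and 1 rose and 2 fell in TUR. The expansin gene EXPA2 (AA35G00022), a wall-loosening gene raised by gibberellin in Arabidopsis seeds, fell in both accessions (log2 fold change -3.04, SE 0.24, adjusted p = 3e-08 in CYP and -2.21, SE 0.21, adjusted p = 5.4e-07 in TUR, edgeR), to 10.2 ± 0.828 CPM in CYP light, against 84.5 ± 7.31 in CYP dark, and to 55.0 ± 27.2 in TUR light, against 251 ± 18.0 in TUR dark (SD, n = 3 each). On deposited RPKM the fall of EXPA2 in TUR was smaller, at -1.15 (limma, adjusted p = 0.0185). XERICO (AA659G00001), known in Arabidopsis as a gene raised by DELLA proteins, rose to 242 ± 27.8 CPM in CYP light, against 47.8 ± 6.57 in CYP dark (SD, n = 3 each, log2 fold change 2.33, SE 0.13, adjusted p = 2.7e-10, edgeR). In TUR this model also rose, to 42.6 ± 4.63 CPM in light, against 15.3 ± 2.58 in darkness (SD, n = 3 each, log2 fold change 1.47, SE 0.14, adjusted p = 4.5e-07, edgeR). A second XERICO match (AA742G00002), named after its values were seen, rose less in CYP (0.66, adjusted p = 0.00875, edgeR). It was not called in TUR (0.14, adjusted p = 0.640) or for the difference between accessions (0.51, adjusted p = 0.391).

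**Figure D5:**
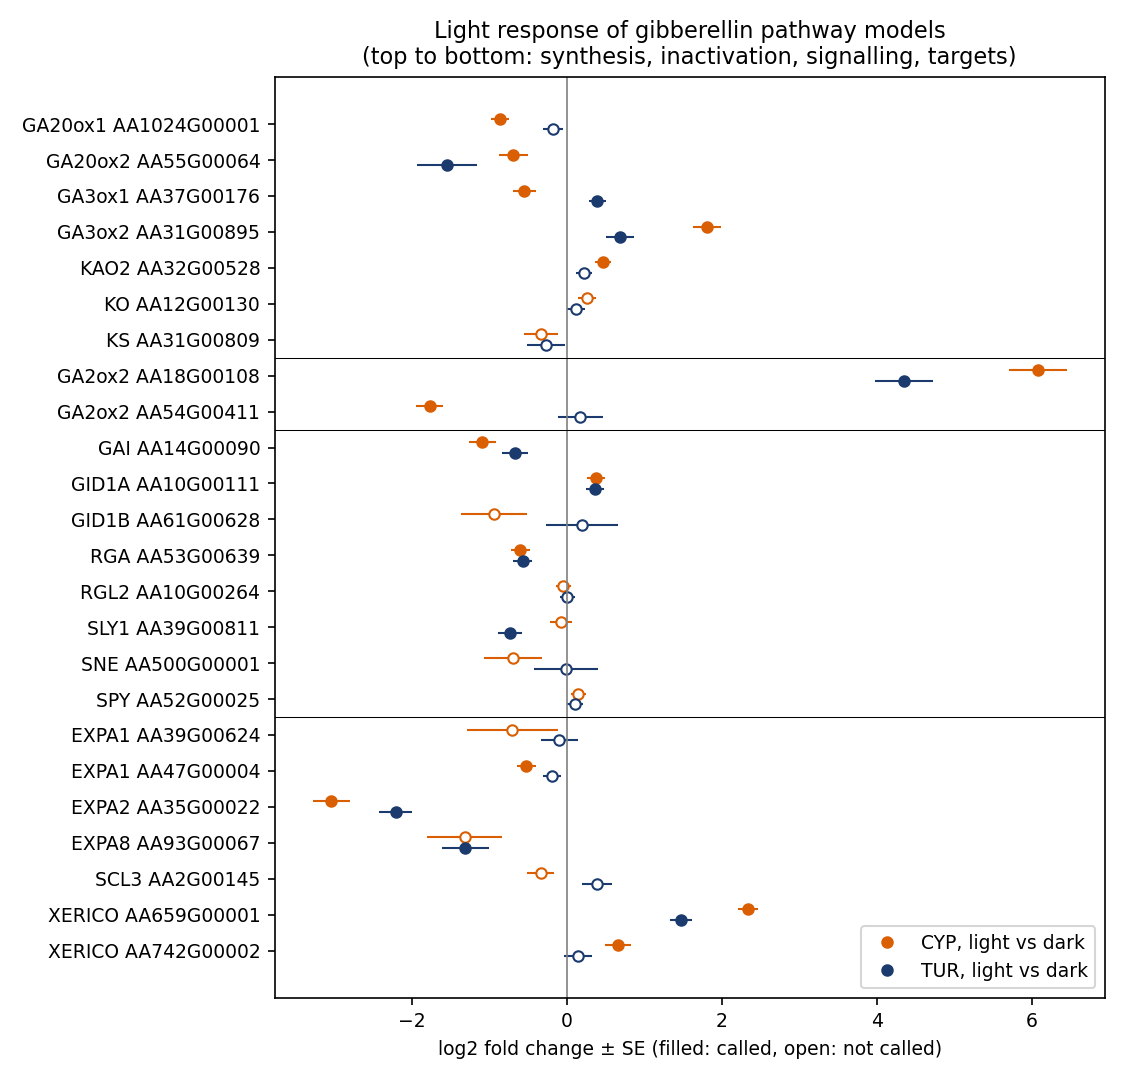
Log2 fold change in light against dark (x axis, ± SE from edgeR) of the 24 tested gibberellin pathway models (y axis), in CYP (orange) and in TUR (blue), filled where called and open where not. The GA2ox2 match AA18G00108 stands farthest right in both accessions, at 6.08 and 4.35, and EXPA2 farthest left in both.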

How the data were processed

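Counts of imbibed-seed mRNA came from 12 libraries (4 groups of 3), made with a Lexogen SENSE mRNA kit after poly(A) selection, per the labels' protocols. The deposited table holds raw counts, a length and an RPKM value per gene model and library, per the file headers. Per the submitters' processing notes, the tools were HTSeq 0.6.1, Bowtie2 2.2.3, Trimmomatic and bcl2fastq 2.17.1, with TAIR10 named as build, and no roles are stated. The release of the gene models is not given there. The RPKM deposited by the authors equals the count per length and column total in CYP libraries (100% of values within 0.1%) but not in TUR libraries.

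The deposited counts were tested with edgeR 4.0.16 (R 4.3.3): TMM scaling, models with at least 1 CPM in at least 3 libraries, 4 group means fitted to all 12 libraries, quasi-likelihood tests and Benjamini-Hochberg adjustment over 15671 models in each of 5 comparisons, called under 0.05. SE is the log2 fold change divided by the root of the test's F value. The test was first tested on simulated data. Intervals of read ratios are exact binomial (95%). RPKM from counts in ratios and ranks used TMM scaling, and in the comparison with deposited RPKM the column total alone.

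Members, lists and tests were chosen with earlier results of these data known. All 3 GASA models were named, as were up to 3 called pathway genes of the largest change in each light comparison and the difference, and the 5 models most like the most abundant GASA model. Alternatives were RLE scaling, DESeq2 1.42.0, no low-count filter, limma 3.58.1 on log2(RPKM + 1), fits of the compared groups alone, each library left out, the replicate number as a block and, added after seeing the data, limma on deposited RPKM within each accession. No 2 libraries of a group agreed within counting noise (chi-square per gene at least 3.06).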

Additional observations from a re-analysis of the deposited data

How the results depend on the processing

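GASA4 kept its direction in all 5 comparisons under each alternative run for them (deposited RPKM served light against dark alone, and no fit of the compared groups alone was made for the difference), and its calls for light against dark in both accessions and for CYP against TUR. GASA3 kept its calls in CYP light against dark and between accessions. Its uncalled value in TUR reversed without TUR dark replicate 2 (-0.06), TUR light replicate 1 (-0.073) or TUR light replicate 3 (-0.05), and on deposited RPKM (-0.015), within a range of -0.073 to 0.22 over the libraries left out. For the difference between accessions, 1 GASA model (GASA4) was called with DESeq2 and 1 without a low-count filter, where the cause was not tested, and 0 to 1 with a library left out. Without the filter GASA1 was called lower in CYP light than in TUR light (adjusted p = 0.00136, edgeR). Leaving out a library gave 1 call in TUR light against dark and 2 in CYP light against dark and in each comparison between accessions. Over all models, 1875 to 3764 were called in TUR light against dark with a library left out (1875 without TUR light replicate 3 and 1898 without TUR dark replicate 2), against 2882 with all 12, and 1493 on deposited RPKM. For the difference between accessions they were 163 to 452, against 351, and 8 of the 12 fits moved the count by over 1.5 times. In CYP light against dark they were 2915 to 4082 (3909 with all), between accessions 5895 to 6940 in darkness (6967) and 7327 to 9008 in light (8265).

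With the replicate number as a block, 2673 models were called in TUR, 3720 in CYP, 270 for the difference, 6764 between accessions in darkness and 8101 in light, and no GASA call changed. The numbers were not taken to pair the libraries: 6 of 18 same-numbered pairs had deviations from their group means that correlated above 0.1 (median 0.0115), and 0 of 12 libraries correlated best with its own number in every other group. Depth limits GASA1, whose 0 reads in CYP light allow up to 0.0781 CPM over the group.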

Other observations

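Of the 6 other GASA loci of Arabidopsis, GASA7 and GASA12 each matched 1 model. GASA7 (AA123G00098) had 0, 0 and 0 reads in CYP light, 5, 1 and 1 in CYP dark, 6, 3 and 4 in TUR light and 12, 6 and 13 in TUR dark, with CYP dark and TUR light overlapping in CPM. The ratio of light to dark in TUR was 0.443 (13 reads in light and 31 in darkness, 95% interval 0.213 to 0.871, counting error only). In CYP, with 0 reads in light and 7 in darkness, the exact 95% interval puts GASA7 at least 2.19-fold lower in light, and 0 reads taken as 3 over the group would give 3.55-fold. GASA12 (AA87G00383) had 0 reads in all 12 libraries.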
